A study of Rattus norvegicus with 6 samples.

Results

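The mitochondrial ribosomal protein genes are the nuclear genes for the protein part of the ribosome that works inside mitochondria. They were taken as the protein-coding rows of the deposited expression table whose symbol begins with Mrpl or Mrps followed by a digit, which gave 76 of the table's 34510 rows, or of its 22250 protein-coding rows. By symbol, 46 of them belong to the large subunit (Mrpl) and 30 to the small subunit (Mrps). Transcripts were measured by poly(A) RNA sequencing in cultured ventricular heart muscle cells of newborn rats. The group named Trim28 consists of 3 libraries of cells infected with an adenovirus that expresses TRIM28, a chromatin corepressor recruited by zinc finger proteins, and the group named Bgal, against which it was compared, also has 3 libraries. The labels do not expand the name Bgal, do not say what virus those cells received, and give no dose, time after infection or batch. Nor do they say whether the libraries of a group are separate cultures, so the p-values rest on the spread among these 6 libraries alone, and that spread may be technical.

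The mitochondrial ribosome translates the few messages of the mitochondrial chromosome, all of which encode subunits of the respiratory chain and ATP synthase. Its ribosomal RNAs are made from the mitochondrial chromosome, while every one of its proteins is made in the cytosol from a nuclear gene and imported. The small subunit binds the message and checks the pairing with tRNA, and the large subunit forms the peptide bond and passes the new chain into a tunnel that opens at the inner membrane. Part of the proteins descend from those of the bacterial ribosome and the rest were added in the course of mitochondrial evolution. Heart muscle is rich in mitochondria, and inherited defects of several of these proteins in humans, such as MRPL3 and MRPL44, cause cardiomyopathy.

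Of the 76 genes, 74 passed the filter on low values (at least 0.5 FPKM in at least 3 libraries), and 44 of these were lower in Trim28 libraries, 3 were higher and 27 did not pass the test. FPKM is a read count divided by the gene's length and the total of its library. The test was limma on log2(FPKM + 1) with Benjamini-Hochberg adjustment over the 14808 genes that passed the same filter and a threshold of 0.05 on the adjusted p. Among all 14808 genes, 41.2% passed the test, 21.1% as lower and 20.1% as higher. The share of the 74 genes that fell was 59.5%. The median log2 difference, Trim28 minus Bgal, was -0.24 over the 74 genes and -0.02 over all genes tested. The falls were small: the Bgal mean exceeded the Trim28 mean by 1.14-fold to 1.97-fold, with a median of 1.34-fold, and 4 genes reached 1.5-fold. Because most of the 74 genes are well expressed, the stricter filter of at least 5 FPKM in at least 3 libraries gives a closer background. There, 45 of 71 members were lower and 4 higher, against 29.3% lower and 23.3% higher of all 9153 genes that passed it.

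**Figure D1:**
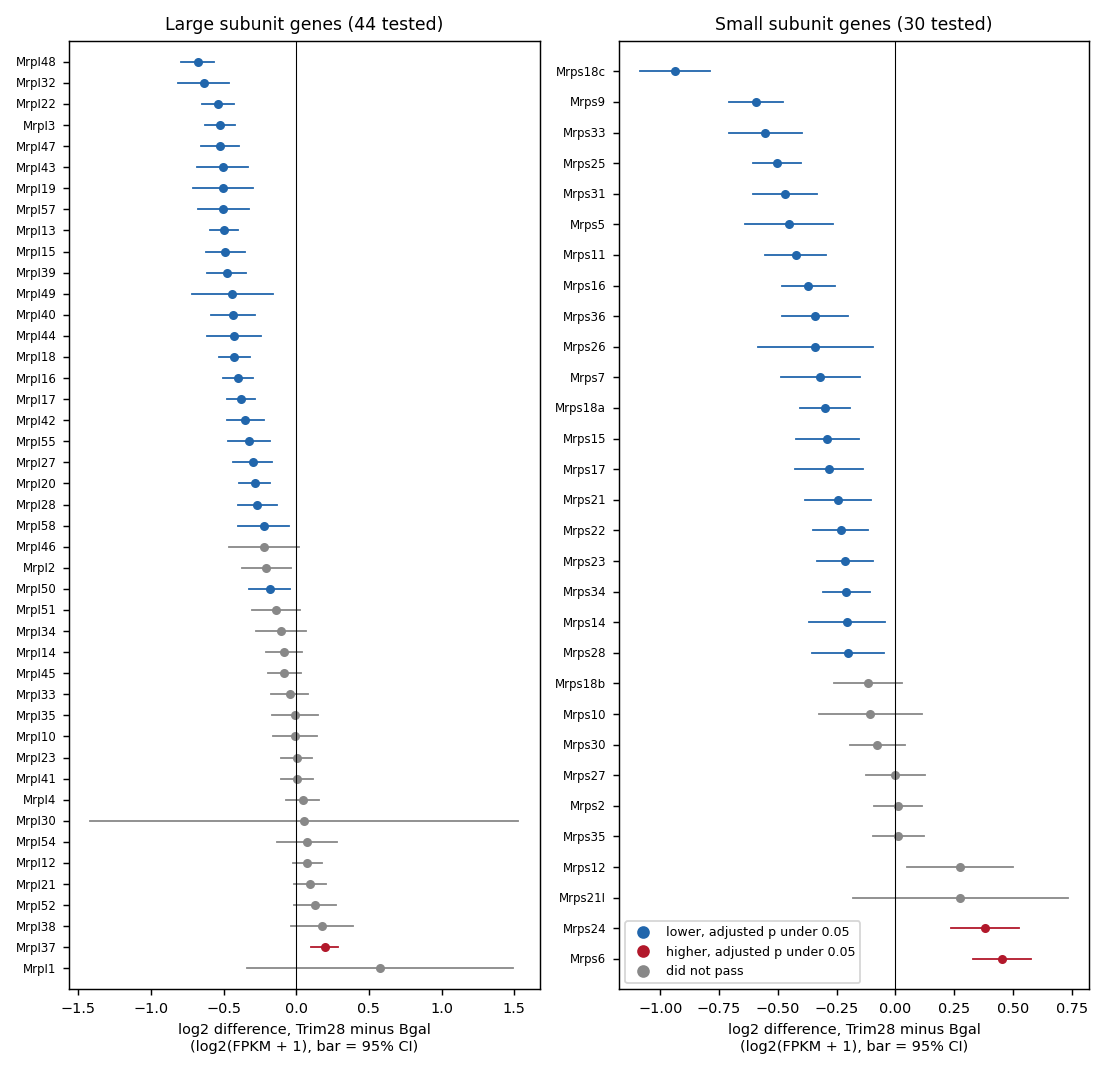
Log2 difference, Trim28 minus Bgal, on the log2(FPKM + 1) scale for each tested gene of the large subunit (left, 44 genes) and the small subunit (right, 30 genes), with the 95% confidence interval of the limma fit as a bar. Blue points were lower, red points higher and grey points did not pass; the longest falls are those of Mrps18c, Mrpl48 and Mrpl32, and the widest intervals are those of the low-level genes Mrpl30 and Mrpl1.

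In all 44 genes called lower, the highest Trim28 value lay below the lowest Bgal value. Over all genes tested, 27.7% had every Trim28 value below every Bgal value and 26.0% had every Trim28 value above. Among the 74 members, 44 were of the first kind and 5 of the second kind, and the groups of the other 25 overlapped. The 5 were the 3 genes called higher, Mrpl37, Mrps6 and Mrps24, together with Mrpl12 and Mrpl21, which did not pass the test.

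The libraries held between 26146166 and 34593292 reads on genes, and a tested member had a median of 1168.5 reads per library in the large subunit and 1333.5 in the small subunit. The transgene check held in each library: Trim28 had 2923, 2890 and 980 FPKM in Trim28 libraries, against 81.6, 87.8 and 77.6 FPKM in Bgal libraries, with the third Trim28 library at the lowest level of its group. For the marker counts that follow, the shares over all genes tested were 20.1% higher and 21.1% lower. Of 9 cardiomyocyte markers tested, 3 were higher and 4 lower in Trim28 libraries, with log2 differences from -1.45 to 0.67. Their summed level was 24636 to 26027 FPKM in Trim28 libraries and 20758 to 23348 FPKM in Bgal libraries. Markers of other cells were higher in Trim28 libraries: 9 of 10 fibroblast markers with a summed 1020 to 1087 against 554 to 576 FPKM, 7 of 8 mural and smooth muscle markers with 1620 to 1718 against 761 to 1017 FPKM, and all 8 tested of 9 leukocyte markers with 80.1 to 86.0 against 36.3 to 37.6 FPKM. Of 7 endothelial markers 3 were tested, of which Eng and Tek were higher and Kdr lower, with a summed 89.8 to 92.8 against 39.4 to 47.5 FPKM, while Cdh5, Tie1, Vwf and Emcn stayed under 0.5 FPKM on average in both groups. In such bulk samples fewer cells of a type and less RNA per cell cannot be told apart. The part of these cell markers in the values of the ribosomal protein genes was not tested.

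The promoter windows of the strongest fall and the strongest rise of each subunit are printed here, with that of Mrpl32, which was added after its letters were seen because it carries the most NRF1 matches among the large falls. They are RefSeq sequences on the rat assembly GRCr8, read 5′ to 3′ on the gene's strand from 200 bases before the annotated start to 20 bases after it. Capitals mark exact matches, on either strand, to the letters GCATGCGC (NRF1), CCGGAAG (the ETS family, which includes GABPA) or AAGATGGCG (YY1), and positions are counted from the start. These factors are textbook regulators of nuclear genes for mitochondrial proteins.
Mrpl48 promoter, chr1:164351357-164351576, minus strand: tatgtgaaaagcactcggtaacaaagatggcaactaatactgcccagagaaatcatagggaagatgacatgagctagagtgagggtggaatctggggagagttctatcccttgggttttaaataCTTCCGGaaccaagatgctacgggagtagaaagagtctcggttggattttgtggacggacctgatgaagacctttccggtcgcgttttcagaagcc
Mrpl37 promoter, chr5:127074948-127075167, minus strand: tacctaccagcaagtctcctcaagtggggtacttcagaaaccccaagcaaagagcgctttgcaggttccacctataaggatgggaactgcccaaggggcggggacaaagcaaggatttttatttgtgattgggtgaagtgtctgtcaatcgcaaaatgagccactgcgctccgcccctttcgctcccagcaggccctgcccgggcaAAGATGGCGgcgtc
Mrps18c promoter, chr14:9122887-9123106, minus strand: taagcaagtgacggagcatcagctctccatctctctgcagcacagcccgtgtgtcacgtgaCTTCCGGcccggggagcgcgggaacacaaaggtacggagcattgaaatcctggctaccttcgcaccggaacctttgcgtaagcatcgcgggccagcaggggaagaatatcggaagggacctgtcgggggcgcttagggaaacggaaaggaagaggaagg
Mrps6 promoter, chr11:44778467-44778686, plus strand: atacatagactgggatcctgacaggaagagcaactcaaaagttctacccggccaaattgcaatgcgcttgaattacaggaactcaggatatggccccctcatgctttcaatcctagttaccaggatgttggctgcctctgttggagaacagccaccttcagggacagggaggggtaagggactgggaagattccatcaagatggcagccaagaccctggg
Mrpl32 promoter, chr17:55260451-55260670, plus strand: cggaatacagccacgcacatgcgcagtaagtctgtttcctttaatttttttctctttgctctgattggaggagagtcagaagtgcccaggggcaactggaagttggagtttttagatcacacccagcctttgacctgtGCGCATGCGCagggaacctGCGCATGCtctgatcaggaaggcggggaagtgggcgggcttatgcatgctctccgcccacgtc

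The Mrpl48 window has 1 ETS match at -76, the Mrpl37 window 1 YY1 match at 7, the Mrps18c window 1 ETS match at -139 and the Mrps6 window none. The Mrpl32 window has NRF1 matches at -62 and -60, which overlap each other on opposite strands, and at -43. RefSeq windows of 300 bases (250 before the start and 50 after it) were found for 60 of the 76 members, and the counts that follow are over those windows. A match to at least 1 of the 3 motifs stood in 30 of them, or 50%, against 15.5% of the windows of all 19005 protein-coding genes. The ETS letters stood in 35.0% against 11.2%, the YY1 letters in 15.0% against 2.29% and the NRF1 letters in 8.33% against 3.23%. Windows of nuclear respiratory chain genes held a match to at least 1 motif in 42.9%, with ETS letters in 28.6%, YY1 in 12.9% and NRF1 in 12.9%. Those of cytosolic ribosomal protein genes held one in 35.8%, with ETS letters in 28.4%, YY1 in 2.99% and NRF1 in 4.48%. A share above that of all genes was therefore not particular to the members. Within the members, 48.6% of the 35 windows of genes called lower held a match and 47.6% of the 21 windows of genes that did not pass. The ETS letters stood in 31.4% of the former and 38.1% of the latter. For the NRF1 letters these shares were 11.4% and 4.76%, or 4 and 1 windows. For the YY1 letters they were 8.57% and 19.0%, or 3 and 4 windows. These differences were not tested. A match describes letters and does not show that a factor binds.

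Large subunit genes numbered 44 among those tested, of which 24 were lower, 1 was higher and 19 did not pass, with a median log2 difference of -0.25. The share called lower was 54.5%. Summed over the 46 genes, the large subunit had 1840, 1861 and 1806 FPKM in Trim28 libraries, against 2093, 2157 and 2158 FPKM in Bgal libraries. The groups did not overlap, and the Trim28 mean was 0.859 of the Bgal mean. Set against the mean of the Bgal libraries, the median gene stood at -0.24, -0.28 and -0.30 on the log2 scale in Trim28 libraries 1 to 3.

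Mrpl48, a protein specific to the mitochondrial ribosome, fell the most in the large subunit. Its level was 25.5, 26.2 and 25.9 FPKM in Trim28 libraries, against 40.1, 42.3 and 43.9 FPKM in Bgal libraries. The Trim28 libraries stood close together and well below the Bgal libraries, with a log2 difference of -0.68 ± 0.05 (SE, n = 3 against 3) and a limma adjusted p of 0.000114. The deposited table places the gene (ENSRNOG00000018042) on chromosome 1 from 165563788 to 165606375, minus strand.

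Mrpl32 is a conserved protein whose processing by the m-AAA protease controls ribosome assembly in yeast and mouse. It had 25.5, 28.5 and 24.8 FPKM in Trim28 libraries and 38.2, 41.4 and 44.7 FPKM in Bgal libraries. The groups were well apart, with a log2 difference of -0.64 ± 0.08 (SE, n = 3 against 3) and a limma adjusted p of 0.000728. Its row (ENSRNOG00000015989) lies on chromosome 17 from 53102534 to 53105400, plus strand.

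Proteins that line or surround the tunnel by which the chain leaves the ribosome gave 3 falls among the 5 genes so grouped here. That share, 60%, was near the 59.5% of all 74 tested members. Mrpl4, whose bacterial counterpart also reaches into the tunnel, is described with the peptidyl transferase centre and did not pass. Mrpl22 had 33.3, 31.5 and 31.0 FPKM in Trim28 libraries, against 47.9, 47.0 and 45.7 FPKM in Bgal libraries, a log2 difference of -0.54 (limma adjusted p = 0.000211). Mrpl47 had 13.3, 12.8 and 13.9 FPKM in Trim28 libraries and 19.0, 19.9 and 20.1 FPKM in Bgal libraries, a log2 difference of -0.52 (limma adjusted p = 0.000463). Mrpl17, among the most abundant members, had 106, 106 and 99.7 FPKM in Trim28 libraries and 135, 136 and 135 FPKM in Bgal libraries, a log2 difference of -0.38. The groups of these 3 genes did not overlap. Mrpl45, which ties the ribosome to the inner membrane, averaged 35.3 ± 1.36 FPKM in Trim28 libraries and 37.4 ± 1.2 FPKM in Bgal libraries (SD, n = 3 each) and did not pass. Mrpl23 averaged 48.0 ± 0.50 FPKM in Trim28 libraries and 47.9 ± 2.14 FPKM in Bgal libraries, with a 95% interval of the log2 difference from -0.11 to 0.11.

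Near the peptidyl transferase centre, where the peptide bond is formed, Mrpl3, Mrpl16 and Mrpl27 fell, and Mrpl2 and Mrpl4 did not pass. This share of 60% was also near the 59.5% of all tested members. Mrpl3 had 64.8, 66.6 and 66.1 FPKM in Trim28 libraries, against 99.2, 91.4 and 95.4 FPKM in Bgal libraries. Its log2 difference was -0.53 ± 0.04 (SE, n = 3 against 3, limma adjusted p = 0.000184). Mrpl16 averaged 36.3 ± 1.28 FPKM in Trim28 libraries and 48.2 ± 0.89 FPKM in Bgal libraries (SD, n = 3 each). Mrpl27 averaged 44.6 ± 0.51 FPKM in Trim28 libraries and 55.3 ± 4.03 FPKM in Bgal libraries. In each of the 3 the groups were apart. Mrpl2 averaged 37.2 ± 3.40 FPKM in Trim28 libraries and 43.0 ± 2.14 FPKM in Bgal libraries, with a limma adjusted p of 0.0565. It was called lower in 4 of the 14 other settings, over which its adjusted p ranged from 0.0210 to 0.145. Mrpl4 had a 95% interval of its log2 difference from -0.07 to 0.16.

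Both members of the stalk that recruits translation factors did not pass. The stalk-base protein mrpl11, listed in lower case and so outside the rule, was called lower and is described below. Mrpl12 had 98.5, 97.4 and 96.1 FPKM in Trim28 libraries and 87.9, 94.7 and 94.2 FPKM in Bgal libraries. Its Trim28 values all lay above its Bgal values, by less than the test required (limma adjusted p = 0.197). Mrpl10 averaged 21.6 ± 1.59 FPKM in Trim28 libraries and 21.7 ± 0.85 FPKM in Bgal libraries (SD, n = 3 each). Mrpl33, a short conserved protein and the member with the highest level, had 196, 200 and 198 FPKM in Trim28 libraries and 204, 192 and 219 FPKM in Bgal libraries, with groups that overlapped.

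By descent, 14 of 26 tested large subunit genes shared with bacteria fell and none was higher, with a median log2 difference of -0.28. Of 18 genes specific to mitochondria, 10 fell and 1 was higher, with a median of -0.22. The shares lower, 53.8% and 55.6%, were near the 54.5% of all tested large subunit genes. Among the mitochondria-specific falls, Mrpl43 had 37.3, 36.8 and 40.2 FPKM in Trim28 libraries, against 53.4, 60.7 and 49.99 FPKM in Bgal libraries. Its Bgal libraries were the more scattered, and the groups did not overlap (log2 difference -0.51, limma adjusted p = 0.00187). Mrpl44, which binds the ribosomal RNA, averaged 19.2 ± 1.84 FPKM in Trim28 libraries and 26.1 ± 1.56 FPKM in Bgal libraries (SD, n = 3 each). Mrpl40, the lowest-level gene of the subunit that fell, had 11.1, 10.8 and 10.2 FPKM in Trim28 libraries and 14.4, 14.3 and 15.7 FPKM in Bgal libraries. Mrpl58, which frees stalled chains by its peptidyl-tRNA hydrolase activity, averaged 49.97 ± 5.24 FPKM in Trim28 libraries and 58.3 ± 1.5 FPKM in Bgal libraries, close to the threshold at a limma adjusted p of 0.0477, and its call was lost in 10 of the 14 other settings (adjusted p from 0.0190 to 0.122). The other genes of the subunit called lower were Mrpl13, Mrpl15, Mrpl18, Mrpl19, Mrpl20, Mrpl28, Mrpl39, Mrpl42, Mrpl49, Mrpl50, Mrpl55 and Mrpl57, with log2 differences from -0.51 for Mrpl19 to -0.18 for Mrpl50.

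Mrpl37, a mitochondria-specific protein, was the single large subunit gene called higher. Its level was 58.4, 58.4 and 56.0 FPKM in Trim28 libraries, against 50.7, 49.5 and 50.4 FPKM in Bgal libraries. The rise was small and without overlap, at 1.15-fold and a log2 difference of 0.20 ± 0.04 (SE, n = 3 against 3; limma adjusted p = 0.00712). Without the third Trim28 library, the one with the least Trim28 transcript, 3 large subunit genes were called higher, and without the second Bgal library 2 were.

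Small subunit genes numbered 30, all tested, of which 20 were lower, 2 were higher and 8 did not pass, with a median log2 difference of -0.24. The share called lower was 66.7%. Their summed level was 1059, 1079 and 1045 FPKM in Trim28 libraries and 1208, 1225 and 1217 FPKM in Bgal libraries, without overlap, a ratio of means of 0.872. The median gene stood at -0.25, -0.19 and -0.29 on the log2 scale in Trim28 libraries 1 to 3, relative to the mean of the Bgal libraries. The summed levels of the subunits kept nearly the same proportion: large over small was 1.74, 1.72 and 1.73 in Trim28 libraries and 1.73, 1.76 and 1.77 in Bgal libraries. Both subunits together took 0.328%, 0.330% and 0.326% of the reads on genes in Trim28 libraries, against 0.383%, 0.388% and 0.383% in Bgal libraries.

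Mrps18c, the member of the Mrps18 trio that takes the place of the bacterial S18 protein in the small subunit, had the largest fall of all members. It had 14.2, 14.7 and 15.9 FPKM in Trim28 libraries, against 27.7, 29.8 and 31.0 FPKM in Bgal libraries. Each Trim28 library lay far below each Bgal library, with a log2 difference of -0.94 ± 0.06 (SE, n = 3 against 3) and a limma adjusted p of 9.85e-05. The table places it (ENSRNOG00000002178) on chromosome 14 from 10440691 to 10446909, minus strand. The other members of the trio moved less: Mrps18a averaged 69.3 ± 2.74 FPKM in Trim28 libraries and 85.4 ± 2.09 FPKM in Bgal libraries (SD, n = 3 each) and was called lower, and Mrps18b did not pass, with a log2 difference of -0.12.

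Among the proteins shared with bacteria, 11 of 16 small subunit genes fell and 2 were higher, with a median log2 difference of -0.26. The share lower was 68.8%, near the 66.7% of all small subunit genes. Mrps9, whose bacterial counterpart reaches the P-site tRNA, had 26.3, 24.3 and 26.1 FPKM in Trim28 libraries. It had 38.2, 39.4 and 39.5 FPKM in Bgal libraries (log2 difference -0.59, limma adjusted p = 0.000181). Mrps5, related to a bacterial protein that affects decoding accuracy, had 22.7, 24.3 and 19.9 FPKM in Trim28 libraries. It had 29.7, 29.8 and 32.7 FPKM in Bgal libraries (log2 difference -0.45, limma adjusted p = 0.00376). Neither gene's groups overlapped, and the third Trim28 library was the lowest for Mrps5 but not for Mrps9.

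Of the 12 tested proteins specific to mitochondria that sit in the small subunit or carry its name, 8 fell and none was higher. Their median log2 difference was -0.22. The share lower was 66.7%, the same as over all small subunit genes. Mrps33 had 27.96, 28.1 and 32.6 FPKM in Trim28 libraries and 43.1, 43.4 and 44.9 FPKM in Bgal libraries. Its log2 difference was -0.55 (limma adjusted p = 0.000745). Mrps25, among the 3 most abundant small subunit genes, had 60.3, 62.4 and 62.1 FPKM in Trim28 libraries and 88.9, 83.9 and 90.4 FPKM in Bgal libraries, a log2 difference of -0.50 (limma adjusted p = 0.000221). Mrps31 had 22.8, 21.8 and 20.9 FPKM in Trim28 libraries and 30.3, 29.2 and 32.5 FPKM in Bgal libraries, a log2 difference of -0.47 (limma adjusted p = 0.000835). All 3 had their Trim28 libraries below their Bgal libraries. The other small subunit genes called lower were Mrps7, Mrps11, Mrps14, Mrps15, Mrps16, Mrps17, Mrps21, Mrps22, Mrps23, Mrps26, Mrps28, Mrps34 and Mrps36, with log2 differences from -0.42 for Mrps11 to -0.20 for Mrps28.

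Mrps6 and Mrps24 went the other way. Mrps6, a conserved protein and the most abundant small subunit transcript in Trim28 libraries, had 109, 105 and 104 FPKM there. It had 82.2, 76.8 and 72.5 FPKM in Bgal libraries. It rose by 1.37-fold, with a log2 difference of 0.45 ± 0.05 (SE, n = 3 against 3; limma adjusted p = 0.000698). Mrps24, the counterpart of the bacterial S3 protein at the entry of the message, had 48.9, 48.5 and 44.8 FPKM in Trim28 libraries and 34.3, 38.9 and 35.3 FPKM in Bgal libraries, a log2 difference of 0.38 (limma adjusted p = 0.00264). The groups of both genes were apart. Mrps12, whose bacterial counterpart monitors codon pairing, averaged 55.4 ± 4.90 FPKM in Trim28 libraries and 45.7 ± 5.57 FPKM in Bgal libraries (SD, n = 3 each) and did not pass at a limma adjusted p of 0.0563. It was called higher in 6 of the 14 other settings, among them those without the second Bgal or the third Trim28 library, and its adjusted p ranged from 0.0116 to 0.164 over the 14.

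**Figure D2:**
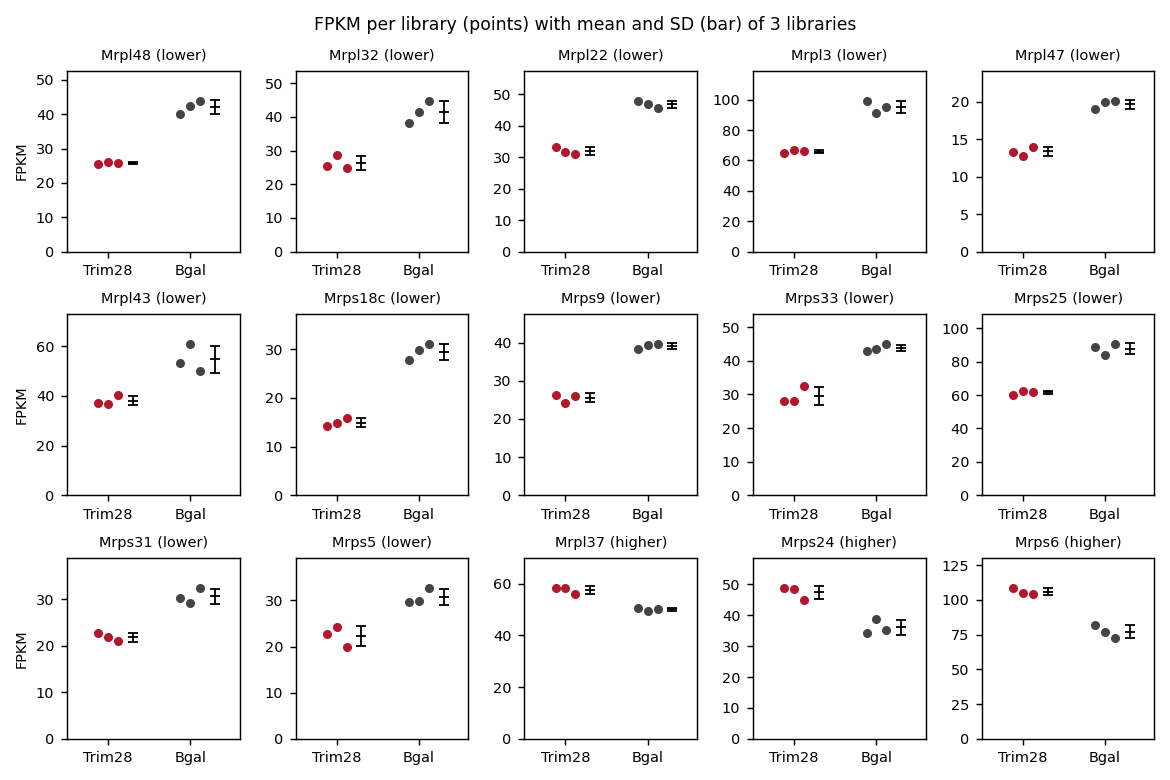
FPKM of the 12 genes with the largest falls and the 3 genes called higher, one panel each, with 1 point per library and the mean and SD of 3 libraries as a bar; Trim28 libraries are red and Bgal libraries grey. In every panel the 3 Trim28 points lie on one side of the 3 Bgal points, below them in 12 panels and above them for Mrpl37, Mrps24 and Mrps6.

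The symbols do not follow the structure of the ribosome in every case. Mrps18a and Mrps30 sit in the large subunit of the mammalian ribosome, and Mrps36 is a subunit of the 2-oxoglutarate dehydrogenase complex and not a ribosomal protein. Mrps36 was called lower, at 36.8 ± 0.90 FPKM in Trim28 libraries and 47.0 ± 3.58 FPKM in Bgal libraries (SD, n = 3 each), and Mrps30 did not pass. Sorted by structure, and with the low-level copy Mrps21l left out, 25 of 46 tested large subunit genes and 18 of 26 small subunit genes were lower. The table also lists mrpl9, mrpl11 and mrpl24 in lower case, outside the rule. With them 25 of 47 large subunit genes were lower and 1 was higher, since mrpl11, a stalk-base protein, fell to 39.3 ± 2.35 FPKM in Trim28 libraries, against 52.6 ± 2.34 FPKM in Bgal libraries (limma adjusted p = 0.00142). This count was added after the values were seen.

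Several members could not be measured cleanly. Mrpl36 and Mrpl53 are listed at 0 in all 6 libraries and were not tested. A row described as L36-like (LOC100910528) had 0.244, 2.20 and 0 FPKM in Trim28 libraries, against 29.3, 26.2 and 1.78 FPKM in Bgal libraries, and a row described as L53 (LOC103692169) had 0.796, 56.5 and 0.871 FPKM in Trim28 libraries, against 0.625, 0.383 and 0.728 FPKM in Bgal libraries. In each of these rows the libraries of a group differ among themselves as much as the groups do, and the assignment of reads between such rows and the named genes is uncertain. Mrpl1, the protein of the other, mobile stalk, had 4.75, 4.02 and 5.65 FPKM in Trim28 libraries and 1.39, 6.67 and 2.15 FPKM in Bgal libraries. It shares the table with an L1-like copy (LOC100359687), and of the reads on the pair 46.5%, 25.6% and 33.3% fell on Mrpl1 in Trim28 libraries, against 15.1%, 35.9% and 36.1% in Bgal libraries. Those shares have no order by group. Mrpl1 did not pass, with a log2 difference of 0.58, but without the second Bgal library it was called higher, at 1.07 and a limma adjusted p of 0.00539. Over its other settings the adjusted p ranged up to 0.656. Mrpl30 had 1.36, 3.60 and 2.13 FPKM in Trim28 libraries and 0.077, 5.96 and 3.04 FPKM in Bgal libraries, and its span overlaps that of Mitd1 on the opposite strand over 76963 bases. Mrps21l, a copy of Mrps21, had between 1 and 7 reads per library. Smaller overlaps with a gene on the opposite strand involve, among others, Mrpl47 with Actl6a over 1443 bases and Mrps7 with Gga3 over 772 bases. The strand setting of the authors' counting is not given in any source used here, so the split of reads in such overlaps cannot be told.

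Gene length and level were set beside the response as a description. Across the 74 genes the Spearman correlation of the log2 difference was 0.04 with gene length and 0.06 with mean level, against 0.11 and -0.10 across all 14808 genes. These are descriptions over genes that share the same libraries. The members are short, with a median gene length of 1129.5 bases against 2154 bases over all genes tested.

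Many of these genes start beside another gene that runs the other way, and this was looked at after the values were seen. By the table's coordinates, 21 of the 74 tested members (28.4%) had the start of a protein-coding gene on the opposite strand within 1000 bases, in a head-to-head layout, against 10.4% of 12511 tested protein-coding genes. Of the 12 members called lower that had such a neighbour, the neighbour was lower in 5, higher in 1 and did not pass in 6. Of the other 9 members with a neighbour, the neighbour was lower in 3, higher in 1, did not pass in 4 and was not tested in 1. Among all tested protein-coding genes 22.3% were lower, and the difference between these counts was not tested. Psma2, a proteasome subunit whose start lies 192 bases from that of Mrpl32, had 109, 104 and 118 FPKM in Trim28 libraries, against 167, 156 and 159 FPKM in Bgal libraries. Psma2 and Mrpl32 were both lower in every Trim28 library, at log2 differences of -0.54 and -0.64. Tcp1, a chaperonin subunit beside Mrpl18, Twnk, the mitochondrial DNA helicase beside Mrpl43, Helq beside Mrps18c and Zfp189 beside Mrpl50 were also lower. Gga3, beside Mrps7, was higher by 0.30 on the log2 scale where Mrps7 was lower by a difference of -0.32. Mrpl46 and Mrps11 form such a pair with each other, 72 bases apart, and only Mrps11 passed. This pair enters both counts above, since each gene is the neighbour of the other. Mrps11 averaged 22.4 ± 0.65 FPKM in Trim28 libraries and 30.4 ± 1.70 FPKM in Bgal libraries (SD, n = 3 each). The difference between the members of that pair was not tested.

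**Figure D3:**
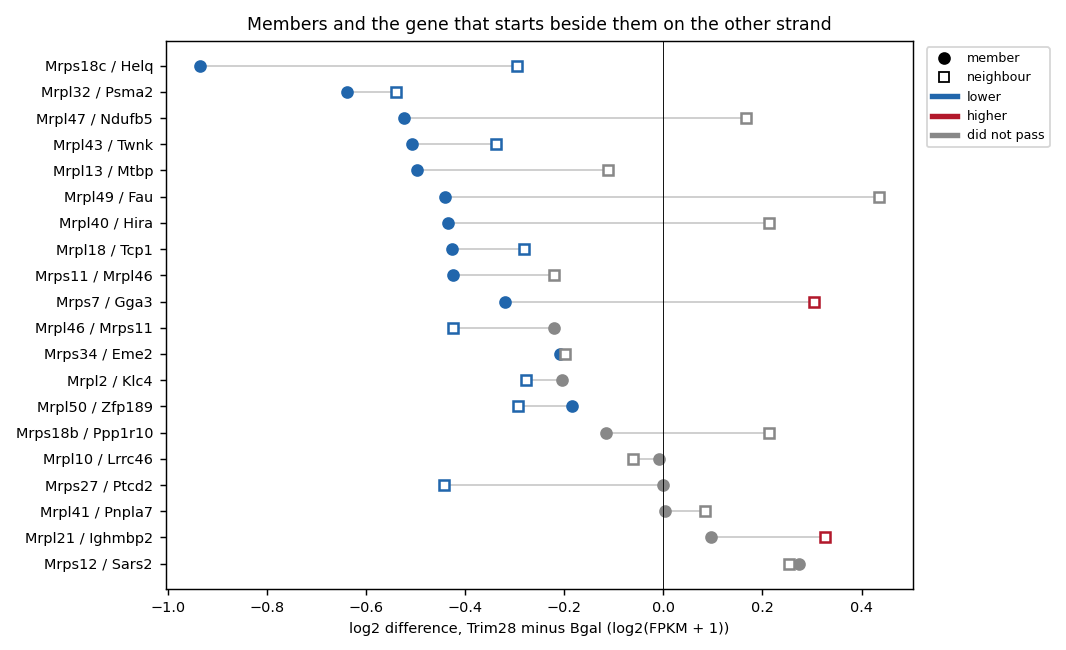
Log2 difference, Trim28 minus Bgal, on the log2(FPKM + 1) scale for the members with a head-to-head neighbour that was tested (filled circles) and for that neighbour (open squares), 1 pair per row; blue was lower, red higher and grey did not pass. Psma2 lies close to Mrpl32, while Fau, Hira and Ndufb5 lie on the other side of 0 from Mrpl49, Mrpl40 and Mrpl47 without passing the test.

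Proteins of the same ribosome with other names moved in both directions: Chchd1 and Ptcd3 were lower, Dap3 was higher, and Aurkaip1 and Gadd45gip1 did not pass. Dap3, a GTP-binding small subunit protein, averaged 37.1 ± 1.35 FPKM in Trim28 libraries and 33.2 ± 1.5 FPKM in Bgal libraries (SD, n = 3 each; limma adjusted p = 0.0432). Of 24 tested factors that assemble the ribosome, 8 (33.3%, against 21.1% of all genes) were lower and none higher, with a median log2 difference of -0.10. Mterf4, which guides an rRNA methyltransferase, had 11.4 ± 1.09 FPKM in Trim28 libraries and 16.6 ± 0.78 FPKM in Bgal libraries, and Rbfa, a small subunit maturation factor, had 14.5 ± 0.56 FPKM in Trim28 libraries and 20.9 ± 2.01 FPKM in Bgal libraries. The GTPase gene Mtg2 and the large subunit factor gene Ngrn were also lower.

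Of 19 translation factors, 8 (42.1%, against 21.1% of all genes) were lower and none higher, with a median of -0.17. Gatb, part of the enzyme that makes the glutamine tRNA, had 14.3, 14.6 and 15.5 FPKM in Trim28 libraries, against 24.2, 24.8 and 23.1 FPKM in Bgal libraries. Taco1, an activator of COX1 translation, had 4.05, 5.02 and 4.51 FPKM in Trim28 libraries, against 8.28, 8.05 and 8.61 FPKM in Bgal libraries. The initiation factor gene Mtif2 and the elongation factor gene Gfm1 fell as well, at log2 differences of -0.50 and -0.28. None of the 4 genes had overlapping groups. Of 16 mitochondrial tRNA synthetases, 3 were higher, with Yars2 at 1.45-fold, and 4 were lower, among them Cars2, Rars2 and Iars2. These shares, 18.8% higher and 25% lower, are near the 20.1% and 21.1% of all genes tested. Of 12 genes for transcription and RNA processing, 4 (33.3%, against 21.1% of all genes) were lower and none higher. The 4 were Hsd17b10, a subunit of the tRNA-processing RNase P, the elongation factor gene Tefm, the transcription factor gene Tfam and the helicase gene Supv3l1.

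Genes of the mitochondrial chromosome, whose messages these ribosomes translate, gave 9 lower and 1 higher of 13 coding genes, with a median log2 difference of -0.56. These are 69.2% lower and 7.7% higher, against 21.1% and 20.1% of all genes tested. For the summed FPKM of these coding genes, the Trim28 mean was 0.795 of the Bgal mean. COX1 was the one higher, by 0.39 on the log2 scale. ATP8 had the longest fall, to 27.8 ± 0.58 FPKM in Trim28 libraries, against 335 ± 62.7 FPKM in Bgal libraries (SD, n = 3 each). How reads were divided between adjoining genes of this chromosome is not given, so the size of that fall is uncertain. Of the rRNA rows of the mitochondrial chromosome, AY172581.24 was higher, at 868 ± 19.8 FPKM in Trim28 libraries and 597 ± 76.1 FPKM in Bgal libraries. AY172581.9 did not pass. Poly(A) selection catches ribosomal RNA in part, so these rows do not measure its amount.

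Among nuclear regulators of mitochondrial gene sets, Esrrg, an estrogen-related receptor, fell to 24.1 ± 0.91 FPKM in Trim28 libraries, against 42.5 ± 1.80 FPKM in Bgal libraries (SD, n = 3 each). Gabpa, a member of the ETS family, had 11.1, 11.9 and 10.6 FPKM in Trim28 libraries and 14.3, 12.1 and 14.4 FPKM in Bgal libraries. It was lower at a limma adjusted p of 0.0429. Nrf1 had 9.36, 9.28 and 8.97 FPKM in Trim28 libraries and 9.23, 9.72 and 8.79 FPKM in Bgal libraries, and its groups overlapped. Myc and Pprc1 were higher, and Yy1, Gabpb1, Esrra, Ppargc1a and Ppargc1b did not pass. Of these 10 genes 2 were higher and 2 lower, or 20% each, near the 20.1% and 21.1% of all genes tested.

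Set beside other families of the same table, the nuclear respiratory chain and ATP synthase genes had the nearest counts. Of 80 tested, 51 were lower (63.7%, against 21.1% of all genes) and 1 was higher (1.2%, against 20.1%). The median log2 difference of these genes was -0.24. Their summed level was 28873 to 29257 FPKM in Trim28 libraries and 32902 to 37035 FPKM in Bgal libraries. Cytosolic ribosomal protein genes, the counterparts that serve the cytosol, had a median of 0.09 over 81 tested. Of these, 31 were higher (38.3%, against 20.1% of all genes) and 12 lower (14.8%, against 21.1%). Their sums overlapped between the groups, at 25222 to 26112 FPKM in Trim28 libraries and 23320 to 25262 FPKM in Bgal libraries. These are counts and medians without a test of the difference between families.

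**Figure D4:**
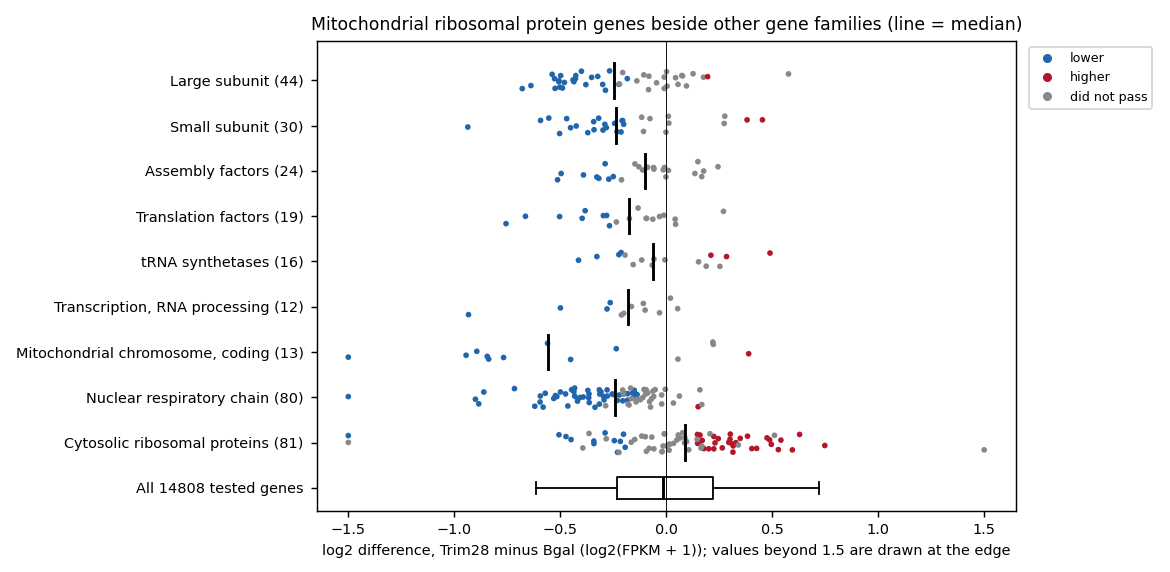
Log2 difference, Trim28 minus Bgal, on the log2(FPKM + 1) scale for each tested gene (points) of the mitochondrial ribosomal protein genes and of other families, with the family's median as a black line and all 14808 genes as a box of the quartiles with whiskers to the quantiles 0.05 and 0.95. The medians of both subunits and of the respiratory chain lie near -0.24, that of the cytosolic ribosomal proteins at 0.09, and 5 points beyond the axis limit of 1.5 are drawn at the edge.

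**Figure D5:**
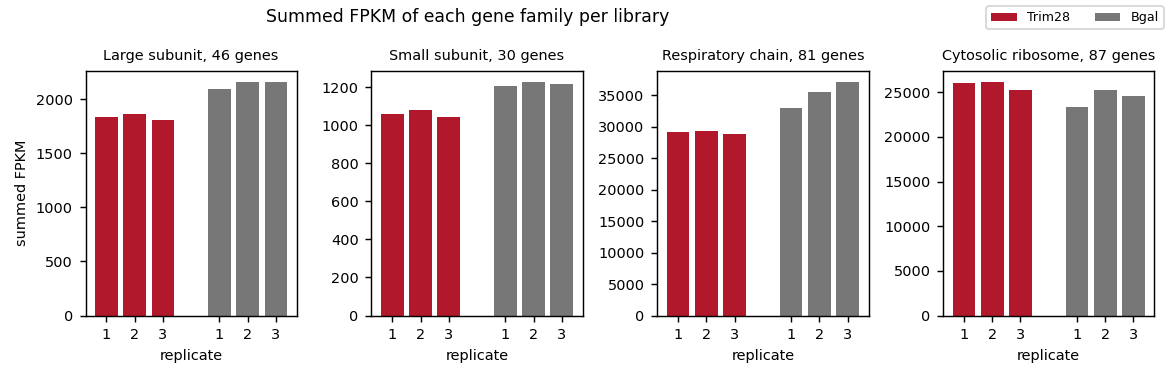
Summed FPKM per library for the genes of the large subunit, the small subunit, the nuclear respiratory chain and the cytosolic ribosome, with 1 bar per library, Trim28 in red on the left and Bgal in grey on the right of each panel. The 3 Trim28 bars are below the 3 Bgal bars in the first 3 panels, and the bars of the cytosolic ribosome overlap.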

How the data were processed

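Messenger RNA of neonatal rat ventricular cardiomyocytes was sequenced in 3 Trim28 and 3 Bgal libraries, grouped by their titles. Libraries were poly(A)-selected, strand-marked with dUTP and read in pairs, per the labels' protocols. The authors deposited FPKM, per the file headers, in 1 column per library, none pooled. HISAT2 2.0.5 and DESeq2 are named in the submitters' processing notes. The counting tool, strand setting, genome build and annotation are not given in any source used here.

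The mitochondrial ribosomal protein genes and the gene lists were chosen with earlier results of these data known. FPKM times gene length gave whole multiples of 1 step per library for 100% of values (within 0.01 of a read), and these gave the reads. Reads on genes were 27789223, 26146166 and 28298731 in Trim28 libraries and 34593292, 28574951 and 34202760 in Bgal libraries. Genes reaching 0.5 FPKM in 3 or more libraries were compared on log2(FPKM + 1) with limma 3.58.1 in R 4.3.3 (intensity trend, two-sided, Benjamini-Hochberg adjustment over 14808 genes, threshold 0.05), after the step was tested on simulated data. A log2 difference is of FPKM + 1 and understates low genes, and folds are ratios of mean FPKM. Within each group, libraries differed beyond sampling noise (chi-square per degree of freedom 6.78 to 18.1), so none was a copy. Sums, medians and motif shares have no test.

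Genes named with values were, per subunit, the 6 largest falls and up to 6 largest rises past the threshold, the 3 highest and 3 lowest levels, and genes not tested. Of each list, up to 4 genes with the smallest p-values were named. Further members, neighbours and copies named for their role or position were chosen after their values were seen. Alternatives were a pseudocount of 0.1, no filter, a filter of 5 FPKM, other scalings, limma without trend, limma-voom on the recovered reads, each library left out, and a replicate block.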

Additional observations from a re-analysis of the deposited data

How the results depend on the processing

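All 3 members called higher and 37 of the 44 called lower kept their call in each of the 14 other settings. Mrps14 lost its call in 11 of the 14 settings, Mrpl58 and Mrps28 in 10 each and Mrpl50 in 8. Mrps26 lost it in 6, Mrpl49 in 3 and Mrps23 in 1. No lost call came with a change of direction. Calls were gained in 14 values of 6 members: as lower for Mrpl2 in 4 settings and Mrpl46 in 1, and as higher for Mrps12 in 6 and Mrpl1, Mrpl38 and Mrpl52 in 1 each. The gains of Mrpl38, Mrpl46 and Mrpl52 came without the third Trim28 library and that of Mrpl1 without the second Bgal library. Lower genes numbered 21 to 25 in the large subunit and 16 to 20 in the small subunit over all settings. With 1 library left out, large subunit genes called higher numbered 1 to 3, and the large subunit median ranged from -0.2922 to -0.2278. With the filter of 5 FPKM that median was -0.2771, since its construction drops low genes. Deviations of same-numbered libraries correlated at -0.016, 0.13 and 0.009, and those of differently numbered libraries at -0.090 to 0.084. With 3 libraries per group these values cannot decide whether the replicate numbers pair the libraries. With the replicate block, large subunit genes gave 24 lower and 1 higher with a median of -0.25, and small subunit genes 18 lower and 3 higher with a median of -0.24. Changes of direction occurred among 10 members that did not pass, whose log2 differences lie within 0.1 of 0 as reported, and their cause was not tested. With median-of-ratios scaling Mrpl35 was 0.0058, Mrpl10 0.0056 and Mrps27 0.0138. With limma-voom Mrpl23 was -0.0118, Mrpl41 -0.012, Mrps2 -0.0027 and Mrps35 -0.0011, and Mrpl23 was -0.001 with totals without Trim28 and the mitochondrial chromosome. With 1 library left out, log2 differences ran from -0.0926 to 0.0041 for Mrpl33, -0.0548 to 0.0499 for Mrpl35, -0.058 to 0.0441 for Mrpl10, -0.0258 to 0.0359 for Mrpl23, -0.0307 to 0.0344 for Mrpl41, -0.7111 to 0.6349 for Mrpl30, 0.2306 to 1.0707 for Mrpl1, -0.0082 to 0.1649 for Mrpl54, -0.0277 to 0.0373 for Mrps27 and -0.0091 to 0.0222 for Mrps2. Few reads limit Mrps21l, and scatter between libraries limits Mrpl30 and Mrpl1.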
